A study of Mus musculus with 15 samples.

Results

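The genes described here encode E2F transcription factors and the retinoblastoma pocket proteins that bind them: E2f1, E2f2, E2f3, E2f4, E2f5, E2f6 and E2f8, and Rb1, Rbl1 (p107) and Rbl2 (p130). All probes carrying 1 of these 10 gene names on the array were taken, which gave 20 of 41174 distinct probes and 10 of 18708 tested gene names. Of these, 18 passed the filter on dim probes, against 27698 of all probes, and every gene kept at least 1 probe. The 2 dim probes were A_52_P892297 for E2f3, which was not well above background on any array, and A_52_P311718 for E2f5, which was well above background on 1 of 15 arrays. Each of the 18 tested probes was well above background on all 15 arrays and saturated on 0 of them.

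RNA came from mouse embryonic fibroblasts at passage 3, made from C57B6 embryos at 13.5 days post coitum and harvested at high confluence after 24 h without serum. There were 4 arrays each of wild type cells, of p27 knock-out (p27 KO) cells and of stathmin knock-out (stathmin KO) cells. The double KO, without p27 and without stathmin, had 3. The labels call them biological replicates. Each sample (Cy5) was hybridised against RNA pooled from such fibroblasts (Cy3), so that a value is a log2 ratio of sample over reference and 0 means equal to the pool. p27 is an inhibitor of cyclin-dependent kinases made from Cdkn1b, and stathmin is a microtubule-destabilising protein made from Stmn1. All cells of this study, wild type included, were confluent and serum-starved.

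In resting cells, pocket proteins bind E2F factors and hold the genes for DNA replication silent. Cyclin-dependent kinases, which p27 inhibits, phosphorylate the pocket proteins and release the E2Fs, and cells then enter S phase. E2f1, E2f2 and E2f3 are known as activators, E2f4 and E2f5 as repressors that work with Rbl1 and Rbl2, and E2f6 and E2f8 as repressors that bind no pocket protein. E2f8 and Rbl1 are themselves known to be transcribed in late G1 and S phase, whereas Rbl2 accumulates in quiescent cells.

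Across the whole series, 59.3 to 78.9% of non-control spots were well above background in the sample channel of an array. A Stmn1 probe lay at -2.78 ± 0.15 (SD, n = 4) in stathmin KO and -2.77 ± 0.08 (n = 3) in double KO, against 0.76 ± 0.10 (n = 4) in wild type cells and 0.94 ± 0.48 (n = 4) in p27 KO. The tested Cdkn1b probe did not separate the genotypes, with -0.34 ± 0.52 (n = 4) in p27 KO and 0.22 ± 0.50 (n = 4) in wild type; where it lies relative to the deleted part is not given in the sources used here. Other Cdkn1b probes did not pass the filter. All 9 fibroblast markers with complete values were well above background on every array. Some arrays stood apart. Xist was above 0 on 5 arrays (wild type 1, p27 KO 2, stathmin KO 1 and 2, and double KO 1) and at -1.76 or lower on the other 10, and the Y-linked Ddx3y was low on those 5 except wild type 1. The mean of 12 macrophage markers ran from -2.96 to 2.23 in p27 KO and from -2.45 to 1.5 in double KO, whereas all wild type and stathmin KO arrays lay from -2.05 to -0.48. Wild type 3 and 4 correlated at r = 0.84 over all genes, when the next pair of arrays reached 0.65 and the median pair 0.16. The 4 slides each held 1 array per genotype, save 1 slide without a double KO, always in the same position.

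Promoter letters known for E2F-type and cell cycle control were looked up first, because several of these genes are targets of the same pathway. RefSeq promoter windows on GRCm38.p6 (250 bases before to 50 after a start) matched 7 of the 10 genes with 9 windows; E2f4, E2f5 and Rb1 had no entry. The E2F letters TTTCCCGC, TTTCGCGC, TTTGCCGC or TTTGGCGC, on either strand, were in 3 of the 9 windows (Rbl1, E2f2 and E2f3), and in 2.26% of all 32851 windows. The letters of the cell cycle genes homology region (CHR), TTTGAA or TTCGAA on either strand, were in 4 of the 9 windows (E2f8, Rbl2, E2f2 at its other start, and E2f3), and in 19.2% of all. Windows of E2f1 and E2f6 held neither. The E2f1 window (chr2:154569377-154569676, minus strand) lay wholly within the annotated gene, which extends to 154569892. So did the E2f8 window (chr7:48881547-48881846, minus strand), where the gene extends to 48882073. The sequence before the outermost 5′ end of E2f1 and of E2f8 was therefore not searched. The stretches below are shown because Rbl1 and E2f8 followed the E2F target genes across arrays, as described further on, and E2f2 and E2f3 carry the other E2F letters. Each is written 5′ to 3′ on the strand of the gene, and capitals mark E2F or CHR letters, on whichever strand they match. For E2f8 the start is one inside the annotated gene, as given above.
Rbl1, the last 100 bases before the start (chr2:157204535-157204634, minus strand), E2F letters in capitals: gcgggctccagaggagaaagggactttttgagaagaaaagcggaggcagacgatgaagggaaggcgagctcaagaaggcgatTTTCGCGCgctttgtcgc
E2f8, the last 100 bases before the start (chr7:48881597-48881696, minus strand), CHR letters on the opposite strand in capitals: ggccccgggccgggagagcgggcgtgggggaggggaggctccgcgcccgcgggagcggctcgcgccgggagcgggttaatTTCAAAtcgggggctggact
E2f3, the last 100 bases before the start (chr13:29986064-29986163, minus strand), CHR letters and then E2F letters on the opposite strand in capitals: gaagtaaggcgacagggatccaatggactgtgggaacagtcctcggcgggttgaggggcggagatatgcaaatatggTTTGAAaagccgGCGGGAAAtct
E2f2, 30 bases shortly after the start (chr4:136172294-136172323, plus strand), E2F letters in capitals: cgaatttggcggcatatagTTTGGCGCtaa
None of these matches overlapped another. A match describes the letters only, and binding was not measured.

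No probe of these genes was called changed in any of the 9 comparisons by limma, with p-values adjusted by the Benjamini-Hochberg method over all tested probes and called under 0.05. The share of all probes called was 0% for p27 KO against wild type, 0.00723% for stathmin KO against wild type, 0.00361% for double KO against wild type, 0.00361% for double against p27 KO, 0% for double against stathmin KO, 0.00722% for stathmin against p27 KO, 0% for the interaction, 0% for p27-lacking against p27-carrying arrays and 0.0108% for stathmin-lacking against stathmin-carrying arrays. The interaction is the double minus stathmin KO difference, less the p27 KO minus wild type difference. Of the 162 values of a probe in a comparison, 13 had an unadjusted p under 0.05, and the adjusted p-values ran from 0.682 to 1.00. In p27 KO against wild type 1 of 18 probes had an unadjusted p under 0.05, against 5.82% of all probes. In stathmin KO against wild type it was 4 of 18, against 4.80% of all probes, and in double KO against wild type 0 of 18, against 2.26%. Both E2f8 probes were among the 4 in stathmin KO, so these were not 4 separate genes. The counts were 1 of 18 (2.89% of all) for double against p27 KO, 2 of 18 (3.54%) for double against stathmin KO, 1 of 18 (1.42%) for stathmin against p27 KO, 2 of 18 (7.26%) for the interaction, 1 of 18 (2.37%) for p27-lacking against p27-carrying arrays and 1 of 18 (1.24%) for stathmin-lacking against stathmin-carrying arrays. The median log2 difference over the 18 probes was -0.13 for p27 KO, -0.16 for stathmin KO and -0.03 for double KO against wild type, beside 0.00 for the median of all tested probes in the first of these, 0.00 in the second and -0.01 in the third. The 95% interval of a difference had a median half-width of 0.48 for each single knock-out and 0.52 for the double KO against wild type. In bulk RNA such as this, a lower share of cells expressing a gene and less RNA per cell cannot be told apart.

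**Figure D1:**
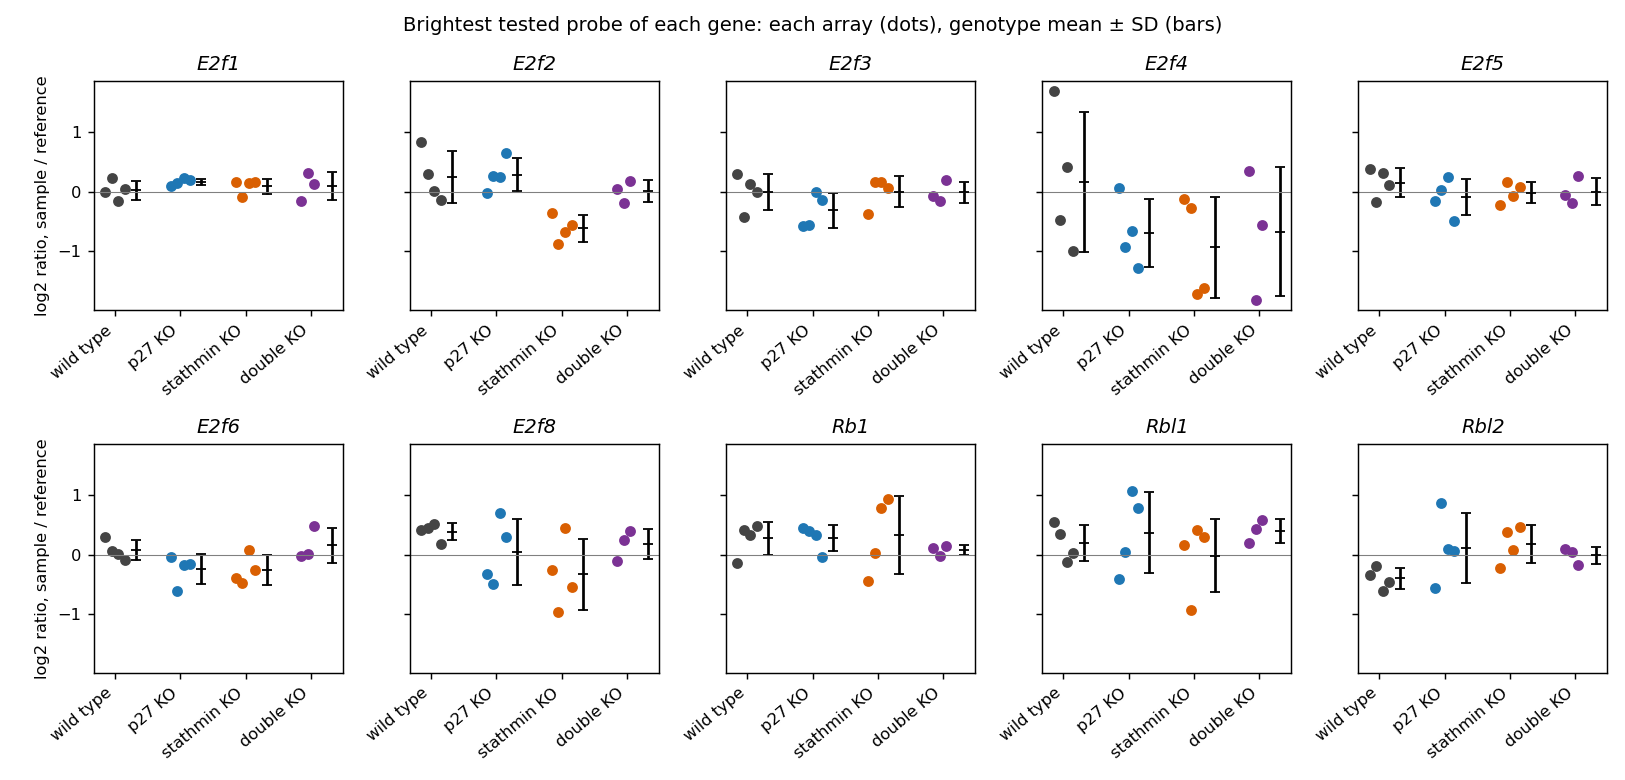
Log2 ratio of sample over reference on each of the 15 arrays, 1 panel per gene for its brightest tested probe; dots are arrays, and bars are the genotype mean ± SD (4 arrays, 3 for double KO). The stathmin KO arrays of E2f2 lie from -0.88 to -0.35, below all other genotypes, E2f1 stays within -0.16 to 0.32, and E2f4 runs from -1.81 to 1.68.

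**Figure D2:**
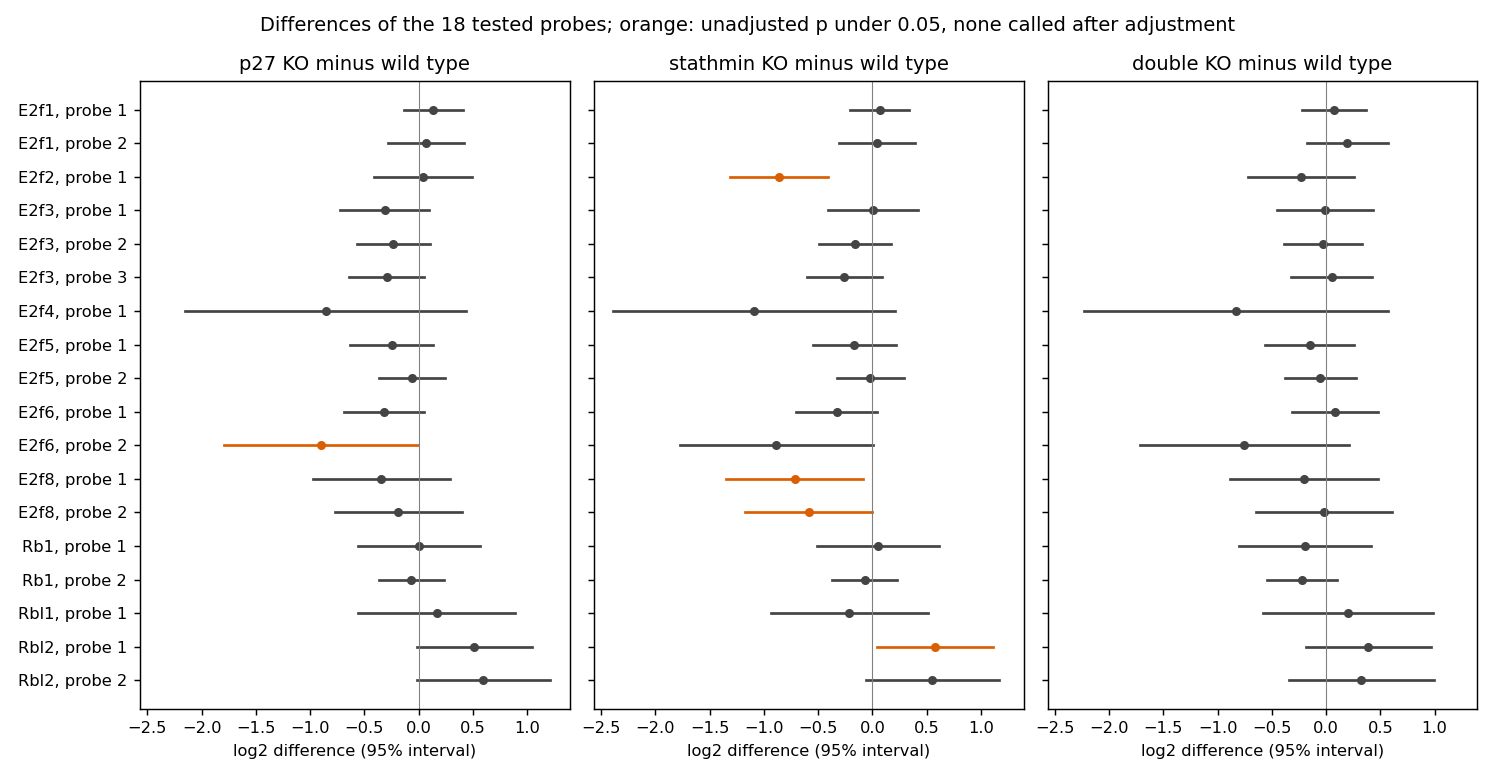
Log2 difference of each knock-out from wild type (x axis) with its 95% interval from the limma fit, for the 18 tested probes (y axis, numbered from the brightest probe of a gene). Orange marks an unadjusted p under 0.05, which holds for 1, 4 and 0 probes in the 3 panels; none was called after adjustment.

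Among the activators, E2f2 gave the lowest unadjusted p of the 10 genes. Its probe A_51_P368009 read 0.83, 0.30, 0.01 and -0.14 on wild type arrays 1 to 4, and -0.02, 0.27, 0.25 and 0.65 on p27 KO arrays 1 to 4. It read -0.35, -0.88, -0.67 and -0.55 on stathmin KO arrays 1 to 4, and 0.05, -0.19 and 0.19 on double KO arrays 1 to 3. The 4 stathmin KO arrays were thus the lowest 4 of the 15, whereas the other 3 genotypes overlapped each other. How many of all probes set a genotype apart from all others in this way was not counted. The means were 0.29 ± 0.28 (SD, n = 4) in p27 KO, 0.25 ± 0.43 (n = 4) in wild type, 0.02 ± 0.19 (n = 3) in double KO and -0.61 ± 0.22 (n = 4) in stathmin KO.

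The E2f2 difference of stathmin KO from wild type was -0.86 (SE 0.21, unadjusted p = 0.00114, limma adjusted p = 0.917), and it was negative on all 4 slides, from -1.18 to -0.41. Groups that do not overlap were found for 3.25% of all tested probes in that comparison. Against p27 KO the difference of stathmin KO was -0.90 (SE 0.21, unadjusted p = 0.000788, adjusted p = 1.00), from -1.21 to -0.33 within slides, again without overlap, which held for 0.643% of all probes. Double KO exceeded stathmin KO by 0.63 (SE 0.23, unadjusted p = 0.0152, adjusted p = 1.00), by 0.40 to 0.74 within the 3 slides; such separation held for 4.95% of all probes. These comparisons share the stathmin KO arrays. Within-slide differences were taken for the 10 genes only. The share of all probes with the same sign on every slide is therefore not known, here or for the genes below. In p27 KO against wild type 0 of 18 probes of the 10 genes separated the groups, against 2.61% of all probes. Over stathmin-lacking against stathmin-carrying arrays the difference was -0.57 (SE 0.15, unadjusted p = 0.00262, adjusted p = 1.00), and over p27-lacking against p27-carrying arrays it was 0.34 (SE 0.15, unadjusted p = 0.0483, adjusted p = 1.00).

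The E2f2 signal was dim, with a median of 287 intensity units in the sample channel and 263 in the reference. In the sample channel alone the stathmin KO differed from wild type by -0.81 (SE 0.19), and in the reference channel by 0.05 (SE 0.07). Restricted to the 10 arrays with low Xist (3 wild type, 3 p27 KO, 2 stathmin KO and 2 double KO), the ratio differed by -0.67 (SE 0.23, unadjusted p = 0.0185, adjusted p = 0.495). E2f2 and Stmn1 lie on the same mouse chromosome (4) with 30 tested genes between them; whether this neighbourhood has a part in the difference was not tested. The mean of 8 epithelial markers ran from 0.09 to 0.57 in wild type and from -0.78 to -0.17 in stathmin KO, and that of 5 muscle markers from 0.08 to 0.44 and from -0.91 to -0.17, both without overlap. The mean of 4 endothelial markers ran from -0.34 to 0.43 and from -0.85 to -0.26, with overlap. Epithelial markers ran from -0.56 to -0.29 in double KO and from -1.05 to 0.08 in p27 KO. Muscle markers ran from -0.34 to 0.36 in double KO and from -1.58 to 0.45 in p27 KO. Their part in the E2f2 difference, and in the other differences between these genotypes given here, was not tested.

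E2f1, the activator best known for also driving apoptosis genes, was the steadiest of the 10 genes by their brightest probes. The brighter probe A_52_P587611 had an SD of 0.14 over the 15 arrays, and its genotype means were 0.17 ± 0.06 (n = 4) in p27 KO, 0.10 ± 0.13 (n = 4) in stathmin KO, 0.10 ± 0.23 (n = 3) in double KO and 0.03 ± 0.16 (n = 4) in wild type. The other probe, A_51_P120636, was printed at 10 spots on each array, and the spots of an array had a median SD of 0.0850. Its genotype means ran from -0.04 ± 0.17 in wild type (n = 4) to 0.15 ± 0.21 (n = 3) in double KO. Both probes followed each other over the arrays (r = 0.78, n = 15), and no comparison gave either an unadjusted p under 0.05.

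E2f3 is the activator whose locus makes a long and a short protein. Its 3 tested probes had SDs of 0.21 to 0.28 over the 15 arrays and correlated with each other at 0.29, 0.52 and 0.75. Probe A_51_P487718 read 0.04, -0.10, 0.25 and 0.03 in wild type, -0.36, -0.46, 0.13 and -0.27 in p27 KO, -0.20, -0.57, 0.07 and -0.12 in stathmin KO, and 0.17, -0.04 and 0.18 in double KO. Both single knock-outs had lower means than wild type and double KO, and all 4 groups overlapped. The interaction was 0.60 (SE 0.24, unadjusted p = 0.0234, limma adjusted p = 0.682), and 0.32 (SE 0.27) on the 10 arrays with low Xist. Within slides, this probe lay below wild type on all 4 in p27 KO (-0.40 to -0.12) and in stathmin KO (-0.46 to -0.14). The brightest probe, A_52_P583458, lay below it on all 4 in p27 KO (-0.86 to -0.13) and had genotype means from -0.31 ± 0.29 in p27 KO (n = 4) to 0.00 ± 0.26 in stathmin KO (n = 4).

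Among the repressors that work with pocket proteins, E2f4, the main E2F of quiescent cells, had the widest spread of the 10 genes. Its probe A_51_P157524 read 1.68, -0.47, 0.42 and -0.99 in wild type and 0.07, -0.92, -0.65 and -1.28 in p27 KO. It read -0.12, -0.27, -1.72 and -1.61 in stathmin KO and 0.35, -1.81 and -0.55 in double KO. High and low arrays occurred in every genotype: the SD was 0.94 over all 15 arrays and 1.17 within wild type alone. By slide, the arrays ran from -0.12 to 1.68 on slide 1, from -0.92 to -0.27 on slide 2, from -1.81 to 0.42 on slide 3 and from -1.61 to -0.55 on slide 4. The spread lay mostly in the sample channel, with an SD of 1.09 there against 0.32 in the reference channel. The largest difference from wild type was that of stathmin KO, -1.09, from -2.14 to 0.20 within slides, and it had no unadjusted p under 0.05 in limma. Within slides, p27 KO lay below wild type on all 4, by -1.62 to -0.29, likewise with no unadjusted p under 0.05.

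E2f5, the other repressor of this kind, was steady on both tested probes. A_52_P109319 had genotype means of 0.16 ± 0.25 (n = 4) in wild type, 0.00 ± 0.23 (n = 3) in double KO, -0.01 ± 0.17 (n = 4) in stathmin KO and -0.09 ± 0.31 (n = 4) in p27 KO. A_51_P292906 had means from 0.23 ± 0.14 in p27 KO (n = 4) to 0.29 ± 0.15 in wild type (n = 4). Neighbours in either order differed by less than their SDs, and the probes correlated at 0.37 over the 15 arrays.

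E2f6, which represses germline genes with Polycomb proteins and binds no pocket protein, gave different pictures on its 2 probes. The brighter one, A_52_P270164, read 0.30, 0.06, 0.01 and -0.09 in wild type, -0.05, -0.61, -0.17 and -0.17 in p27 KO, -0.39, -0.47, 0.08 and -0.26 in stathmin KO, and -0.03, 0.01 and 0.48 in double KO. Within slides, p27 KO lay below wild type on all 4 (-0.68 to -0.07). Double KO lay above all p27 KO arrays and overlapped the stathmin KO and wild type. Its difference from p27 KO was 0.40 (SE 0.19, unadjusted p = 0.0495, adjusted p = 1.00), where groups that do not overlap were found for 3.33% of all probes, and from stathmin KO 0.41 (SE 0.19, unadjusted p = 0.0445, adjusted p = 1.00). Both rested in part on double KO 3, the highest array, without which they were 0.24 (SE 0.20) and 0.25 (SE 0.20). The interaction was 0.73 (SE 0.25, unadjusted p = 0.0123, adjusted p = 0.682), and 0.45 (SE 0.25) on the arrays with low Xist.

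The dimmer E2f6 probe, A_52_P349216, read 0.38, 0.18, 0.85 and -0.01 in wild type, 0.49, -0.94, -0.77 and -0.99 in p27 KO, -0.86, 0.61, -0.88 and -1.01 in stathmin KO, and 0.06, -1.14 and -0.14 in double KO. Its values left a gap between -0.77 and -0.14: 7 arrays of the 3 knock-out genotypes lay below it and the other 8 arrays, all wild type ones included, above it. The p27 KO differed from wild type by -0.90 (SE 0.41, unadjusted p = 0.0487, limma adjusted p = 0.797), and by -1.62 to 0.11 within slides. The 2 probes correlated at 0.29 (n = 15). The first is assigned to a RefSeq transcript and the second to a cDNA record; which transcripts each detects was not tested.

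E2f8, an atypical E2F that acts as a homodimer and restrains the activators, had 2 probes that correlated at 0.84 (n = 15). A_51_P431531 read 0.40, 0.44, 0.51 and 0.18 in wild type and -0.26, -0.97, 0.44 and -0.55 in stathmin KO. Of the stathmin KO arrays, 3 lay below all wild type arrays and the other within them. It read -0.33, -0.49, 0.69 and 0.30 in p27 KO and -0.10, 0.25 and 0.39 in double KO. The stathmin KO differed from wild type by -0.72 (SE 0.29, unadjusted p = 0.0297, limma adjusted p = 0.917), from -1.41 to -0.07 within slides.

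The other E2f8 probe, A_52_P1135379, read 0.78, -0.01, -0.07 and -0.03 in wild type and -0.36, -0.93, 0.04 and -0.42 in stathmin KO, with 1 array of the latter inside the wild type range. Its difference was -0.59 (SE 0.27, unadjusted p = 0.0485, adjusted p = 0.917), from -1.15 to 0.11 within slides, and -0.38 without wild type 1. On the 10 arrays with low Xist the differences were -0.43 (SE 0.35) and -0.15 (SE 0.29).

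**Figure D3:**
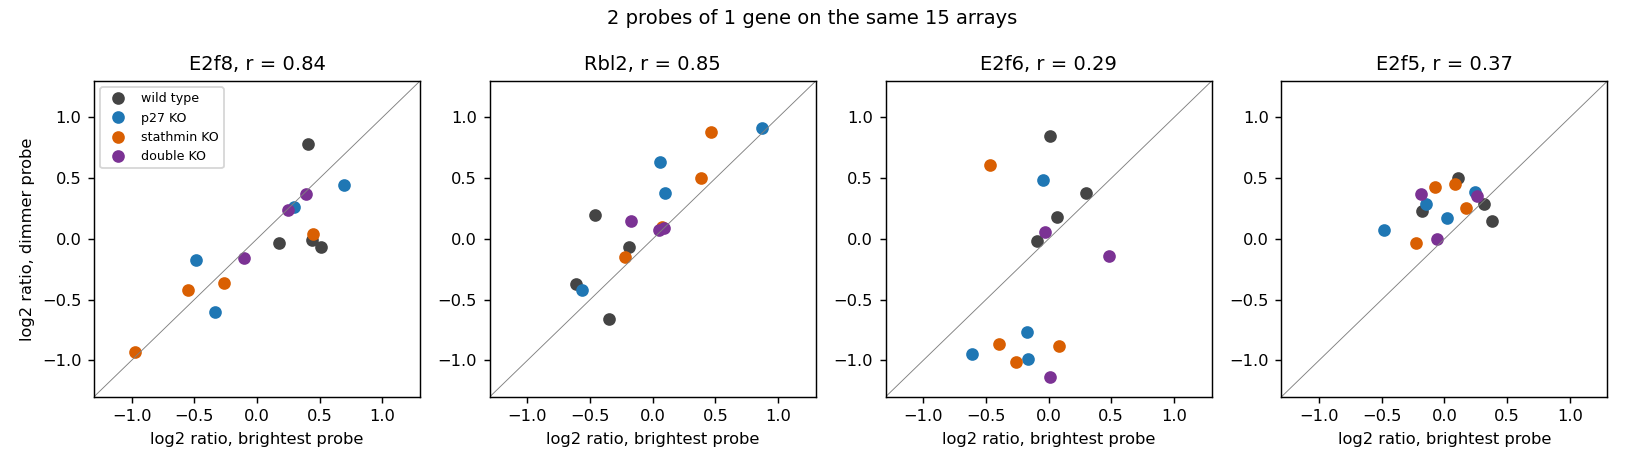
Log2 ratio of the brightest probe (x axis) against that of the dimmer tested probe (y axis) of the same gene over the 15 arrays, coloured by genotype, with the line of equal values. E2f8 (r = 0.84) and Rbl2 (r = 0.85) follow the line, while E2f6 (r = 0.29) and E2f5 (r = 0.37) do not.

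Among the pocket proteins, Rb1, the retinoblastoma protein itself, overlapped in all 4 genotypes. Its probe A_51_P136888, printed at 10 spots with a median SD of 0.09 within an array, had means of 0.33 ± 0.65 (n = 4) in stathmin KO, 0.28 ± 0.22 (n = 4) in p27 KO, 0.27 ± 0.28 (n = 4) in wild type and 0.07 ± 0.09 (n = 3) in double KO. The stathmin KO arrays were widely spread, at -0.44, 0.03, 0.78 and 0.94. The dimmer probe A_52_P419873 had the same arrays at -0.27, 0.12, 0.08 and 0.27, and the probes correlated at 0.71 (n = 15). Neither had an unadjusted p under 0.05 in any comparison.

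Rbl1 (p107) varied within genotypes rather than between them. Probe A_51_P286665 read 0.55, 0.35, -0.13 and 0.02 in wild type, -0.42, 0.04, 1.07 and 0.77 in p27 KO, 0.16, -0.93, 0.40 and 0.30 in stathmin KO, and 0.19, 0.42 and 0.58 in double KO. The highest array was p27 KO 3 and the lowest stathmin KO 2. All 4 groups overlapped, with means of 0.40 ± 0.20 (n = 3) in double KO, 0.36 ± 0.68 (n = 4) in p27 KO, 0.20 ± 0.31 (n = 4) in wild type cells and -0.02 ± 0.61 (n = 4) in stathmin KO. No comparison had an unadjusted p under 0.05.

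Rbl2 (p130), the pocket protein of resting cells, was lowest in wild type. Probe A_52_P117325 read -0.35, -0.19, -0.61 and -0.46 in wild type and -0.22, 0.39, 0.07 and 0.47 in stathmin KO, with 1 array of the latter inside the wild type range. It read -0.56, 0.87, 0.09 and 0.06 in p27 KO and 0.09, 0.05 and -0.17 in double KO. The difference of stathmin KO from wild type was 0.58 (SE 0.25, unadjusted p = 0.0361, limma adjusted p = 0.917), from 0.12 to 0.93 within slides, and 0.69 (SE 0.24) on the arrays with low Xist. All 3 double KO arrays lay above all wild type arrays on this probe, and that difference had no unadjusted p under 0.05. Groups that do not overlap, in either direction, were found for 6.65% of all tested probes in that comparison. The other probe, A_51_P457113, had means of -0.22 ± 0.37 (n = 4) in wild type, 0.10 ± 0.04 (n = 3) in double KO, 0.33 ± 0.45 (n = 4) in stathmin KO and 0.38 ± 0.57 (n = 4) in p27 KO. It did not reach an unadjusted p under 0.05, although its stathmin KO minus wild type values were positive on all 4 slides, from 0.47 to 0.68, as were those of p27 KO, from 0.24 to 0.98. The probes correlated at 0.85 (n = 15).

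How far these genes followed the genes that E2F controls was asked next. A list of 40 known E2F target genes (replication origin, Mcm, nucleotide synthesis and S phase genes) held 39 with complete values, and their mean was taken on each array. It read 0.34, 0.11, 0.00 and 0.02 on wild type arrays 1 to 4, and -0.42, -0.64, 0.37 and 0.38 on p27 KO arrays 1 to 4. It read -0.06, -1.01, 0.14 and -0.37 on stathmin KO arrays 1 to 4, and -0.09, 0.27 and 0.38 on double KO arrays 1 to 3. The lowest 4 arrays were all single knock-outs, and both single knock-outs also held arrays above 0.

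E2f8 and Rbl1 followed this mean most closely, E2f8 first by Pearson's r and Rbl1 first by Spearman's rho. E2f8 had Pearson's r = 0.91 over the 15 arrays (permutation p = 1e-05, the smallest that 100000 permutations can give; adjusted over the 10 genes 1e-04) and Spearman's rho = 0.75 (permutation p = 0.00197, adjusted 0.00985). Rbl1 had r = 0.85 (permutation p = 4e-05, adjusted 2e-04) and rho = 0.88 (permutation p = 4e-05, adjusted 4e-04). Of 17955 other genes, 0.390% had an r as high as E2f8 and 1.00% as high as Rbl1, and the median gene had -0.01. Without the 2 arrays farthest from the median (p27 KO 2 and stathmin KO 2), r was 0.83 for E2f8 and 0.79 for Rbl1. After genotype means were subtracted it was 0.91 and 0.89, after slide means 0.93 and 0.81, and both had a positive r within each of the 4 slides. On the 10 arrays with low Xist, r was 0.83 (permutation p = 0.00868, adjusted 0.0434) for E2f8 and 0.78 (permutation p = 0.00701, adjusted 0.0434) for Rbl1. E2f8 and Rbl1 correlated with each other at 0.73. These arrays share a reference pool and a normalization, and E2f8 and Rbl1 are themselves known E2F targets.

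E2f6 had r = 0.70 (permutation p = 0.00346, adjusted 0.0115; rho = 0.61, adjusted 0.06), an r reached by 4.21% of other genes. The relation rested in part on p27 KO 2 and stathmin KO 2, without which r was 0.46, and it was 0.38 (permutation p = 0.288) on the arrays with low Xist. After genotype means were subtracted r was 0.63, after slide means 0.61, and it was positive within 3 of the 4 slides. All of these are for the brighter E2f6 probe, and the dimmer one was not compared with the targets. E2f2 had r = 0.56 (permutation p = 0.0301, adjusted 0.0752) and rho = 0.47 (adjusted 0.193), and its r was reached by 10.2% of other genes. The other 6 genes had adjusted p-values of 0.195 or more: E2f1 0.37, E2f3 0.28, E2f4 -0.01, E2f5 -0.05, Rb1 -0.18 and Rbl2 -0.44 as their r. For Rbl2, r was 0.08 without the 2 arrays just named, and 0.18 on the arrays with low Xist. In rho these 6 genes ran from -0.26 to 0.36, with adjusted p-values from 0.312 to 0.831.

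**Figure D4:**
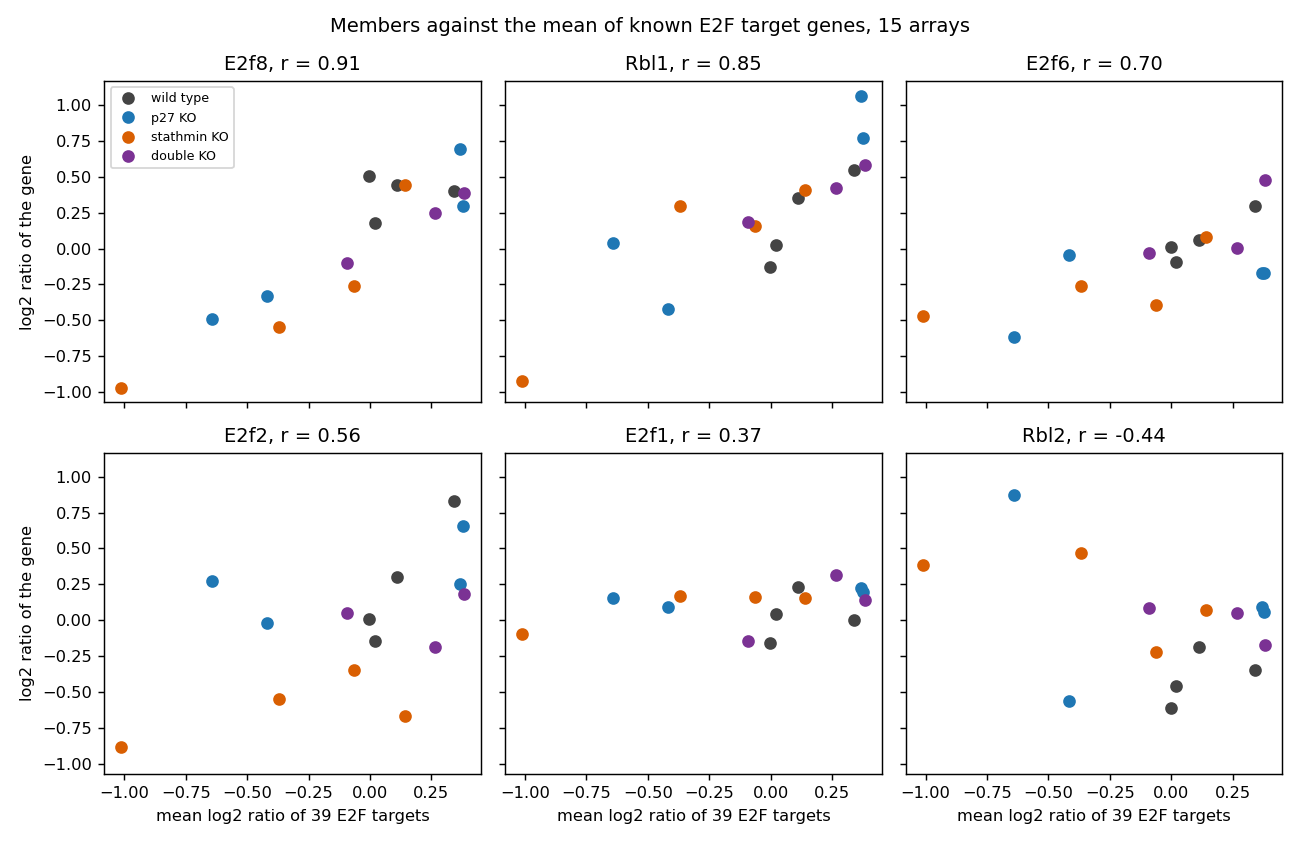
Log2 ratio of 6 genes (y axis, brightest probe) against the mean log2 ratio of 39 known E2F target genes (x axis) on the 15 arrays, coloured by genotype. E2f8 (r = 0.91) and Rbl1 (r = 0.85) climb with the targets, E2f1 stays flat (r = 0.37), and the stathmin KO arrays of E2f2 lie low at every target level.

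The genes whose brightest probe followed each member most closely over the 15 arrays (Pearson's r, 17993 genes with complete values) are given as a description. For E2f8 they were the condensin gene Ncapg2 (0.96), the DNA polymerase alpha gene Pola1 (0.94) and the kinesin gene Kif23 (0.94). For Rbl1 they were Fignl1 (0.97), the replication gene Ticrr (0.96) and Eri2 (0.96), and for Rbl2 Prr16 (0.96), Tbcel (0.94) and the transcript BB551773 (0.93). For E2f4 they were the transcript NAP028025-1 (0.96), Fbs1 (0.96) and Edc4 (0.96). The others had lower maxima: Tsen15, Ccdc91 and Mipep for E2f1 (0.85, 0.85 and 0.84), Myo1a, Gas2l3 and Vat1l for E2f2 (0.81, 0.80 and 0.79), Twistnb, Cox11 and Rbm27 for E2f3 (0.85, 0.84 and 0.83), and Fam133b, Pik3c2a and Wdr44 for E2f5 (0.90, 0.85 and 0.84). Stmn4, TC1532590 and Tdrkh were closest to E2f6 (0.88, 0.87 and 0.87), and AI413194, Itpr2 and Sp6 to Rb1 (0.90, 0.90 and 0.88). The 99th percentile over all genes was 0.63 to 0.84, depending on the member.

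Genes that work with these factors were read from lists, and 0 of their members were called in any comparison by limma. Of the 40 E2F targets, 40 lay below 0 in stathmin KO against wild type, with a median of -0.42 beside 0.01 for all genes, where 50.4% of all probes lay above 0. An unadjusted p under 0.05 was found for 3 of 40, against 4.80% of all probes, among them Pola1 (-0.79, SE 0.31) and Rrm2, a ribonucleotide reductase subunit (-0.72, SE 0.32). On the 10 arrays with low Xist, 30 of 40 lay below 0, with a median of -0.21, and without stathmin KO 2 it was 34 of 40, with a median of -0.18. In p27 KO 32 of 40 lay below 0 (median -0.13) with all arrays and 11 of 40 (median 0.11) with low Xist arrays, so the direction of the list turned, as it did without p27 KO 2 alone (18 of 40, median 0.02). Without p27 KO 1, 3 or 4 the medians were -0.09, -0.27 and -0.32, and without wild type 3 it was -0.24. In double KO 27 of 40 lay above 0 (median 0.08, where 48.9% of all probes lay above 0), 34 of 40 (median 0.29) with low Xist arrays, and 18 of 40 (median -0.02) without double KO 3. Leaving out other single arrays gave medians from 0.02 (without double KO 2) to 0.21 (without double KO 1), with 0.17 without wild type 1 and 0.05 without wild type 3 or 4. The interaction was above 0 for all 40 (median 0.66 beside -0.02 for all genes), where 49.8% of all probes lay above 0. An unadjusted limma p under 0.05 was found there for 3 of 40, against 7.26% of all probes. Among them were Chek1, a checkpoint kinase (1.08, SE 0.47), and Orc1, an origin recognition subunit (1.10, SE 0.49). With low Xist arrays the interaction was above 0 for 35 (median 0.41). These targets share arrays and move together, so their counts are not independent observations.

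The dimerisation partners that let E2F1 to E2F6 bind DNA, Tfdp1 and Tfdp2, differed from wild type by -0.06 (SE 0.16) and -0.48 (SE 0.21) in p27 KO, by -0.17 (SE 0.16) and -0.41 (SE 0.21) in stathmin KO, and by 0.22 (SE 0.17) and -0.34 (SE 0.23) in double KO. Of these, the Tfdp2 value in p27 KO had an unadjusted p of 0.0431 (limma adjusted p = 0.797). The MuvB core joins Rbl1 or Rbl2 and E2f4 in the DREAM repressor complex. A list of 8 genes held this core and genes that act with it, Foxm1 among them, which are not all subunits of that repressor. Of these, 6 lay below 0 in stathmin KO, with a median of -0.34. The lowest unadjusted p-values there were those of Lin9, a MuvB core subunit (-0.76, SE 0.25), Foxm1, a transcription factor of G2 genes (-0.66, SE 0.23), and Lin54, the CHR-binding subunit (-0.38, SE 0.16). In p27 KO 6 of the 8 also lay below 0, with Lin9 at -0.58 (SE 0.25) and Lin52 at 0.45 (SE 0.20); without p27 KO 2 it was 4 of the 8, and with low Xist arrays 3.

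Among 11 corepressors that pocket proteins recruit, 8 lay below 0 in stathmin KO (median -0.14), where Rbbp7, a histone-binding subunit, differed by -0.52 (SE 0.21), and its interaction was 1.02 (SE 0.31, unadjusted p = 0.00587, adjusted p = 0.682). Smarca2, a chromatin remodelling ATPase, lay the other way, at 0.43 (SE 0.24) in stathmin KO and with an interaction of -0.83 (SE 0.35, unadjusted p = 0.033, adjusted p = 0.682). The corepressor median in stathmin KO was -0.05 without stathmin KO 2 and -0.03 with low Xist arrays. The 8 Polycomb partners of E2F6 had medians of -0.02, -0.05 and -0.15 in p27, stathmin and double KO against wild type, and none had an unadjusted p under 0.05; each of these medians changed sign when some single arrays were left out. Of 4 germline genes that E2F6 is known to repress, 3 were tested. Smc1b, a meiotic cohesin subunit, differed by 0.68 (SE 0.28) in p27 KO and 0.12 (SE 0.28) in stathmin KO, and Stag3, another meiotic cohesin subunit, by 0.68 (SE 0.33) and 0.75 (SE 0.33). Tuba3a, a testis tubulin gene, differed by 0.28 (SE 0.16) and -0.27 (SE 0.16), and by -0.55 (SE 0.16, unadjusted p = 0.0048, limma adjusted p = 1.00) between stathmin and p27 KO. In double KO all 3 lay above 0 against wild type, with a median of 0.25. On wild type 4 and p27 KO 1 only 2 of the 3 were well above background. Of 15 genes of quiescence and arrest, 13 lay above 0 in stathmin KO (median 0.31) and 11 in p27 KO (median 0.33). In double KO it was 10 (median 0.08), and the medians of all genes were 0.01, 0.02 and -0.003. An unadjusted limma p under 0.05 was found for 2 of the 15 in stathmin KO, 0 in p27 KO and 1 in double KO. Over all probes the shares were 4.80%, 5.82% and 2.26%. The lowest unadjusted p-values in stathmin KO were those of the cell cycle inhibitor gene Cdkn2a (0.79, SE 0.32) and of Gas6, a growth-arrest ligand (1.24, SE 0.52), which had a value on 14 of the 15 arrays. With low Xist arrays the median in stathmin KO was 0.53. Fibroblast markers ran from 0.30 to 0.84 in stathmin KO and from -0.06 to 0.51 in wild type, and their part in these list values was not tested.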

How the data were processed

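Two-colour microarrays of 15 RNA samples were read. The deposited scanner files hold spot intensities, written by Feature Extraction 9.1.3.1 with no background removed, per the file headers, with Cy5 for the sample and Cy3 for the pooled reference, per the labels, and no dye swap. The log10 ratio in those files was used only to check the direction of the deposited value table, whose log2 ratios by the authors have an unstated normalization and served as an alternative. In limma 3.58.1 under R 4.3.3, intensities were corrected by normexp (offset 50) and loess, spots marked non-uniform were dropped, and replicate spots averaged. A probe was tested if well above background in the sample channel on at least 3 arrays of a genotype. A mean per genotype was fitted to all 15 arrays, and p-values (two-sided) were adjusted over all tested probes. The number of arrays limits the precision. Probes are never set against each other in level.

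The genes and lists were chosen with earlier results of these data known. Members with an unadjusted p under 0.05 in a comparison were given in full there; other genes named are the 3 most correlated with each member and those of smallest p in each list, of which 1 gene is not reported here. The fit was tested on simulated data of 26770 probes: it recovered 55% of 2-fold and 84% of 4-fold changes for stathmin KO against wild type, and 15% and 67% for the interaction. For p27 KO and double KO against wild type it recovered 40% and 38% of 2-fold changes. False calls numbered from 1 to 11 in a comparison. Noise was drawn independently for each probe and array, with equal spread on all arrays. Differences in array quality and genes that move together were thus not simulated. Changes were planted in many more probes than any comparison here called. Adjusted p-values depend on how many probes change, so the shares recovered may be too high for these data. Coordinates are used only with RefSeq promoters; the build of the array design is not given in the sources used here. Replicate numbers in the labels were not taken to pair samples.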

Additional observations from a re-analysis of the deposited data

Results flagged for a closer look

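In 4 of 54 groups of 4 arrays (each tested probe in each genotype with 4 arrays), 1 array lay farther from the others than Dixon's test allows at 95%; chance gives about 1 in 20. For E2f1 (A_52_P587611), stathmin KO 2 read -0.0945 when the other 3 lay at 0.15 to 0.17. For the dimmer E2f6 probe (A_52_P349216), p27 KO 1 read 0.49 against -0.99 to -0.77, and stathmin KO 2 read 0.61 against -1.01 to -0.86. For the dimmer E2f8 probe (A_52_P1135379), wild type 1 read 0.78 against -0.07 to -0.01.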

How the results depend on the processing

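Under 32 alternatives no probe of the 10 genes was called, and no difference named with an unadjusted p under 0.05 changed its direction under the 30 to 32 of them that gave it a value. The interaction and the pooled comparisons have none from only the genotypes compared, and dimmer probes none from the brightest probe per gene. Adjusted p-values of E2f2 in stathmin KO against wild type ran from 0.109 to 1.00 and its difference from -1.03 to -0.67. The setting with only low Xist arrays, and gene lists without single arrays, were chosen after seeing the data. Counts of all probes called are in the order stathmin against wild type, double against wild type, double against p27, double against stathmin, stathmin against p27, interaction, p27-lacking and stathmin-lacking (2, 1, 1, 0, 2, 0, 0 and 3 as reported), and 0 for p27 against wild type throughout. They moved to 1 for the first, the fifth and the interaction with scaling between arrays. With the sample channel alone the first, the fifth and the last gave 1. With the brightest probe per gene the counts were 1, 0, 0, 0, 1, 0, 0 and 1. With the slide as a block, or with the deposited values, both double KO counts were 2, and the deposited values gave 5 for stathmin-lacking. Array weights gave 13, 29, 2 and 1 in the first 4, 2 for the interaction and 9 for stathmin-lacking. A trended, robust variance gave 0 for both double KO counts, and fitting only the genotypes compared gave 1 for the first and the fifth. Low Xist arrays gave 8, 1, 1, 1, 8, 1, 1 and 6. Leaving out 1 array gave 1 to 3, 1 to 2, 1 to 2, 0 to 1, 1 to 3, 0 to 1, 0 to 2 and 2 to 5.

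Numbers were not shown to pair the samples: 12 of 21 same-numbered pairs had residual correlations over 0.1, from -0.33 to 0.42, and 5 of 15 arrays were closest to their own number. The replicate block moved the counts to 2 for double KO against wild type and 2 against p27 KO, and called no probe of these genes.

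Correlations of E2f8 and Rbl1 with the targets passed in every alternative run. That of E2f6 was lost on low Xist arrays (0.38, adjusted p = 0.473). That of E2f2 passed without background correction (0.59, adjusted p = 0.0487), without p27 KO 2 (0.70) and without stathmin KO 3 (0.66). These changed sign: E2f5 with median centring (0.10) and the deposited values (0.0122), E2f4 with the sample channel alone (0.0658) and the deposited values (0.0152), Rbl2 on low Xist arrays (0.18), and, leaving out 1 array, E2f4 (-0.241 to 0.0733) and E2f5 (-0.18 to 0.14). The cause was not tested. With 3 or 4 arrays a genotype, differences within the intervals given cannot be told from none, and the dim probes of E2f3 and E2f5 gave no usable value.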
